A study of Mus musculus with 8 samples.

Results

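Transcripts of 10 genes that write, copy, erase or guard DNA methylation were followed allele by allele in single mouse blastocysts. They were taken by gene symbol as *Dnmt1*, *Dnmt3a*, *Dnmt3b*, *Dnmt3l*, *Uhrf1*, *Tet1*, *Tet2*, *Tet3*, *Dppa3* and *Trim28*, and all 10 were found among the 22810 genes of the count table. The study asked which genes of the blastocyst are read unequally from the maternal and the paternal allele. Whole embryos were collected on embryonic day 3.5 from natural matings, without culture, and each was sequenced on its own with a SMART-Seq2 compatible protocol. The forward cross had a B6 mother and a cast father and gave 3 embryos, and the reverse cross had a cast mother and a B6 father and gave 5 embryos, numbered 1, 2, 3, 5 and 7. B6 is the inbred strain of the mouse reference genome, and cast an inbred strain derived from a different subspecies. All embryos are thus untreated F1 hybrids of the same strains and differ between the crosses in which strain was the mother. They were not matched for sex, and whether embryos of a cross shared a litter was not given in the sources used here.

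DNA methylation on CpG sites is set by the de novo methyltransferases DNMT3A and DNMT3B with their cofactor DNMT3L, which has no catalytic activity of its own. At replication UHRF1 recognises hemimethylated CpG sites and recruits DNMT1, which copies the methylation to the new strand. TET1, TET2 and TET3 oxidise 5-methylcytosine, the first step of active demethylation. Most inherited methylation is lost between fertilisation and the blastocyst, while imprinted regions keep theirs. DPPA3 (also STELLA) and TRIM28 (also KAP1) are maternal factors known to protect methylation in the early embryo, TRIM28 as the corepressor that KRAB zinc finger proteins bring to imprinted regions.

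The values are counts of reads that span a SNP between both strains, so that each embryo has a maternal and a paternal count for each gene. These SNP-spanning reads summed to between 1060063 and 1632695 per embryo, of which the 10 genes held 6264 to 11464 reads, or 0.507% to 0.861%. The B6 allele held 57.4% to 58.3% of all reads of an embryo. Markers of the blastocyst lineages were present in every embryo. In reverse embryo 1 the trophectoderm markers summed to 1257 CPM (reads scaled by edgeR to a common library size after TMM normalisation), against 4033 to 5616 CPM in the other embryos, and this embryo is marked below wherever it holds the highest or lowest value. Most of that sum is keratin reads, with 456 of *Krt8* and 285 of *Krt18* in this embryo against 2126 to 3231 and 1237 to 2482 in the others. The list did not move as a whole. *Cdx2*, *Gata2* and *Eomes* also had their fewest reads there, whereas *Tead4* (582, against 202 to 480) and *Tfap2c* (127, against 38 to 92) had their most, and *Gata3* (412, against 355 to 930) lay within the range of the others. Leukocyte markers summed to 712 CPM in forward embryo 1, 99.7% of it maternal. Forward embryos 2 and 3 had 45.7 and 41.3 CPM, 98.0% and 90% of it maternal. The reverse embryos had 5.04 to 10.3 CPM, or 7 to 16 reads each, 50% to 85.7% of them maternal. Of the 1165 reads in forward embryo 1, 1055 were of 1 gene, *Lyz2*. It had 38 and 43 reads in forward embryos 2 and 3 and 0 to 5 in the reverse embryos. A whole blastocyst is a mixture, so that fewer cells of a type and less RNA per cell cannot be told apart.

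The starts of the genes whose parental alleles differed most are shown first, because a count per gene sums over all of its starts. *Dnmt1* lies on the minus strand of chromosome 9 (chr9:20907209-20959888, mm10). It is known to use several starts, including an oocyte-specific start, and RefSeq (GRCm38.p6) gives 3 windows of 300 bases for it, each from 250 bases before to 50 bases after a start. They are written 5′ to 3′ on the strand of the gene, with every CG in capitals.
Dnmt1, chr9:20959839-20960138: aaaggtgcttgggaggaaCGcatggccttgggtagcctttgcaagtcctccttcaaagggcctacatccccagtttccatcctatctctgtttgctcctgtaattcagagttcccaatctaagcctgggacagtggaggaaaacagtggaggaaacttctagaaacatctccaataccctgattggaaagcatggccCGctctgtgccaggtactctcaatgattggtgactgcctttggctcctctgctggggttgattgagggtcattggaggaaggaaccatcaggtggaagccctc
Dnmt1, chr9:20952574-20952873: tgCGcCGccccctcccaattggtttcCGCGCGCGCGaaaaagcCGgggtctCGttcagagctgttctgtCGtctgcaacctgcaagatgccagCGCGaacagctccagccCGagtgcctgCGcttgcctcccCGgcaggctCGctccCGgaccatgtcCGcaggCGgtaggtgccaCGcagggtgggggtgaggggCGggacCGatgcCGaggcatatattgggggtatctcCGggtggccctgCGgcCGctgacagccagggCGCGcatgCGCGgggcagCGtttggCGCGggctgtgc
The outer window, at the annotated 5′ end of the gene, held 2 CG, fewer than the median of 7 over all 32851 promoter windows. The inner window held 33, a number reached by 8.56% of all windows. A window between them, chr9:20952930-20953229, held 12. *Tet3* lies on the minus strand of chromosome 6 (chr6:83362373-83459084), and the window of its RefSeq start held 22 CG, a number reached by 23.1% of all windows.
Tet3, chr6:83441629-83441928: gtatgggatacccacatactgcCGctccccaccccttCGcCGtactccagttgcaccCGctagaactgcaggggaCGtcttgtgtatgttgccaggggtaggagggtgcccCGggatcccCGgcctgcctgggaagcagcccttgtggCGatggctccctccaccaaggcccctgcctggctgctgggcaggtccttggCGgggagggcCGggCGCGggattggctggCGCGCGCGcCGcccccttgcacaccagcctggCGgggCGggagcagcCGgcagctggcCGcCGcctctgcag
CG was counted as these letters, which read the same on both strands. The counts describe the windows and carry no information on their methylation in these embryos.

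*Dnmt1*, the maintenance methyltransferase, was read more from the paternal allele. In the forward embryos 1, 2 and 3 the maternal reads were 49, 52 and 61 and the paternal reads 151, 70 and 101. In the reverse embryos 1, 2, 3, 5 and 7 the maternal reads were 15, 75, 18, 46 and 16 and the paternal reads 48, 65, 68, 120 and 47. Paternal reads were in the majority in 7 of 8 embryos, and reverse embryo 2 was the exception. Over the 9126 genes with at least 1 read in every embryo and 100 in all, 4.89% had a paternal majority in at least 7 embryos. Forward embryos had a mean paternal share of 65.1% ± 9.36 (SD, n = 3) and reverse embryos of 69.7% ± 13.2 (SD, n = 5). The exact 95% binomial (Clopper-Pearson) interval lay off 50% in 6 embryos and spanned it in forward embryo 2 (57.4%, interval 48.1 to 66.3) and reverse embryo 2 (46.4%, interval 38 to 55.0). These intervals cover counting error only, and amplified reads are not independent molecules.

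Because the mother was B6 in one cross and cast in the other, a preference for a parent moves the B6 share between the crosses. The B6 share of *Dnmt1* was 24.5% to 42.6% in the forward embryos and 46.4% to 79.1% in the reverse embryos, without overlap. Of the 5609 genes with at least 20 reads in every embryo 8.75% had no overlap, 4.94% in the paternal direction. The fitted difference, paternal over maternal, was 0.99 on the log2 scale (SE 0.35, 95% interval 0.27 to 1.71), or 1.99-fold, and its adjusted p was 0.307 (edgeR quasi-likelihood test over 12566 autosomal genes). With a term for each embryo, which sets each maternal count against the paternal count of the same animal, it was 1.05 (SE 0.24, 95% interval 0.55 to 1.55) with an adjusted p of 0.0134. Without forward embryo 1, which held most of the leukocyte marker reads, the fit with embryo terms gave 0.88 and an adjusted p of 0.181. Leaving out any other embryo gave 0.98 to 1.25 and an adjusted p of 0.00114 to 0.0591. The microRNA gene *Mir7081* overlaps *Dnmt1* on the same strand.

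*Tet3*, the dioxygenase known to act on the paternal genome of the zygote from oocyte stores, was read more from the maternal allele in all 8 embryos. The forward embryos 1, 2 and 3 had 49, 30 and 15 maternal and 19, 16 and 8 paternal reads. The reverse embryos 1, 2, 3, 5 and 7 had 65, 12, 15, 26 and 23 maternal and 4, 5, 11, 18 and 1 paternal reads. A maternal majority in at least 7 embryos was found in 3.53% of the 9126 genes. The counts were low, with 317 reads in all and 17 to 69 per embryo, and the interval of the paternal share excluded 50% in 3 embryos. Forward embryos averaged a paternal share of 32.5% ± 3.95 (SD, n = 3) and reverse embryos 24.5% ± 18.5 (SD, n = 5). Reverse embryos 1 and 7 were the lowest, with 5.80% (interval 1.60 to 14.2) and 4.17% (interval 0.105 to 21.1).

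The B6 share of *Tet3* was 65.2% to 72.1% in the forward embryos and 4.17% to 42.3% in the reverse embryos, a lack of overlap in the maternal direction that 3.73% of the 9126 genes showed. The fitted difference, paternal over maternal, was −1.45 (SE 0.47, 95% interval −2.42 to −0.48), which is 2.73-fold toward the maternal allele, with an adjusted p of 0.224. With a term for each embryo it was −1.47 (SE 0.43, 95% interval −2.35 to −0.59) and the adjusted p was 0.0756. Leaving out single embryos from that fit gave −1.70 to −1.18. It passed the threshold of 0.1 without reverse embryo 2, 3 or 5. It missed it without forward embryo 1 (adjusted p = 0.348), 2 (0.265) or 3 (0.209) or reverse embryo 1 (0.129) or 7 (0.172). Forward embryo 1 is the embryo with most of the leukocyte marker reads. *Mir6374* and *5430434F05Rik* overlap *Tet3* on its strand and *B230319C09Rik* on the other, and whether the counting used strand was not stated.

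**Figure D1:**
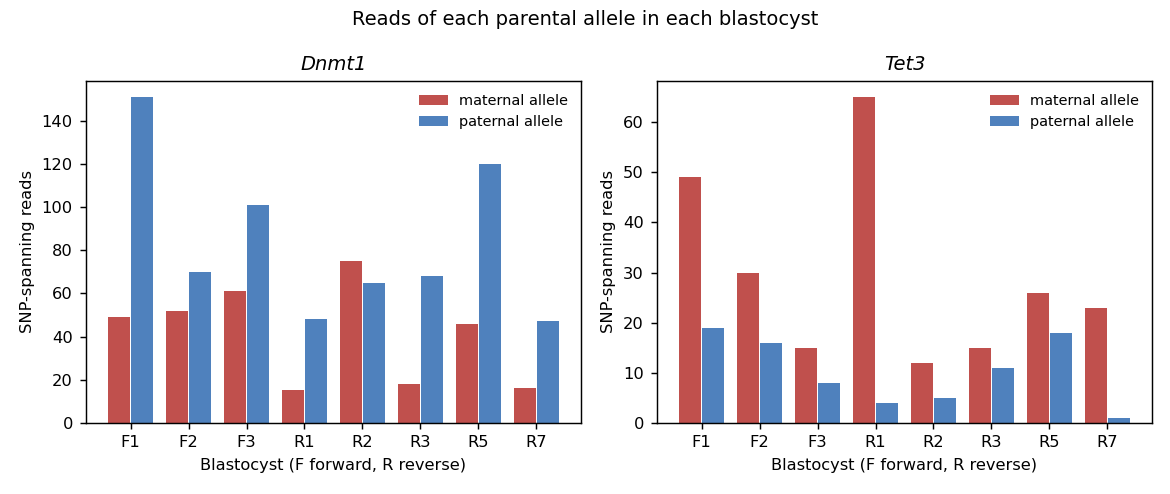
SNP-spanning reads of the maternal and the paternal allele (y axis, bars from 0) of *Dnmt1* (left) and *Tet3* (right) in each blastocyst (x axis, F for the forward and R for the reverse cross). The paternal bar of *Dnmt1* is the higher in all embryos but reverse 2, and the maternal bar of *Tet3* is the higher in all 8.

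At an adjusted p of at most 0.1, 0 of the 10 genes differed between the parental alleles without embryo terms, against 1.42% of the 12566 genes, 1.11% toward paternal and 0.31% toward maternal (919 of them had an unadjusted p of at most 0.05, and *Dnmt1* and *Tet3* were among these). With a term for each embryo 2 of 10 passed, *Dnmt1* toward paternal and *Tet3* toward maternal, against 3.11% of all genes (2.08% toward paternal and 1.03% toward maternal). DESeq2, run only without embryo terms, called 0 of 10, with adjusted p = 0.205 for *Dnmt1* and 0.141 for *Tet3*.

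**Figure D2:**
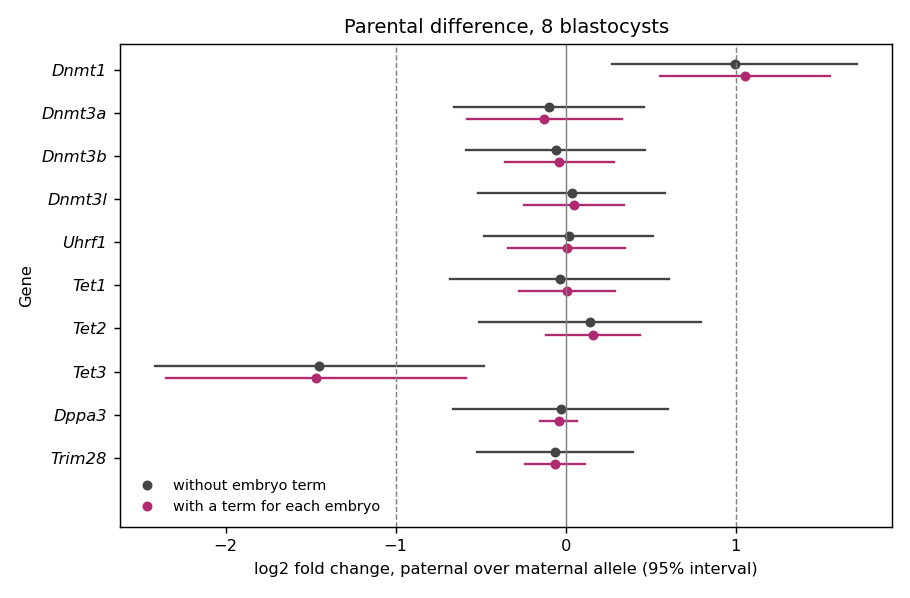
Fitted parental difference of each gene over 8 blastocysts (x axis, log2 fold change of the paternal over the maternal allele, points with 95% intervals), without an embryo term and with a term for each embryo. Dashed lines mark the equivalence margin of 1 either way. The intervals of *Dnmt1* and *Tet3* exclude 0 in both fits, and those of the other 8 genes span 0 and stay within the margin.

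The other 8 genes had parental differences between −0.10 and 0.14 on the log2 scale. Equivalence was tested against a log2 difference of 1 either way, and 8 of 10 genes were equivalent at an adjusted p of at most 0.1, against 35.4% of all genes tested. They were *Uhrf1* (adjusted p = 0.0171), *Trim28* (0.0171), *Dnmt3b* (0.0177), *Dnmt3l* (0.0178), *Dnmt3a* (0.0218), *Dppa3* (0.0247), *Tet1* (0.0263) and *Tet2* (0.0377). *Dnmt1* (0.60) and *Tet3* (0.894) were not. The share of all genes found equivalent depended on the reads required. With at least 10 reads in every embryo, which all 10 genes had, 5590 of 7162 genes were equivalent. The members again made 8 of 10, which is near that share. *Tet2* missed the threshold without forward embryo 1 (0.110), 2 (0.101) or 3 (0.120). With the narrower margin of 1.5-fold the data could not show equivalence for any gene, and 1121 of all genes had an unadjusted p of at most 0.05 there.

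*Uhrf1*, the partner that brings DNMT1 to hemimethylated DNA, was read mostly from the B6 allele whichever parent gave it (chr17:56303321-56323486). In the forward embryos 1, 2 and 3 the B6 allele was maternal and had 235, 126 and 160 reads, against 47, 25 and 37 of the cast allele. In the reverse embryos 1, 2, 3, 5 and 7 it was paternal and had 202, 280, 161, 226 and 193 reads, against 35, 61, 34, 60 and 30. The B6 share was thus 79.0% to 86.5% in all 8 embryos, and the crosses overlapped. As a paternal share this was 17.3% ± 1.25 (SD, n = 3) for forward embryos and 83.1% ± 2.93 (SD, n = 5) for reverse embryos. The fitted strain difference, B6 over cast, was 1.92 (SE 0.24, 95% interval 1.42 to 2.42, adjusted p = 4.76e-06), or 3.78-fold, beside a parental difference of 0.02 (SE 0.24). The annotation has no other gene overlapping *Uhrf1*.

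*Dppa3*, the maternal factor that keeps UHRF1 from chromatin in oocytes, showed the same pattern with the most reads of the 10 genes (chr6:122626410-122630272). The B6 allele had 3573, 2719 and 4807 reads in the forward embryos 1, 2 and 3, against 954, 684 and 1279 of the cast allele. In the reverse embryos 1, 2, 3, 5 and 7 it had 2361, 5176, 4479, 6052 and 4157 reads, against 650, 1492, 1296, 1560 and 1007. The B6 share stayed between 77.6% and 80.5% in all embryos. The strain difference was 1.58 (SE 0.31, 95% interval 0.94 to 2.22, adjusted p = 0.00107), or 2.99-fold, and the parental difference was −0.03 (SE 0.30). The annotation also lists a processed copy, *Dppa3-ps*. According to the authors, reads mapping to several places were left out, and how the copy bears on the counts of each strain was not tested.

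*Uhrf1* and *Dppa3* made 2 of 10 genes past the threshold in the comparison of strains, both toward B6, against 15.4% of all genes (10.9% toward B6 and 4.48% toward cast). Both passed under all 15 alternatives tried. The reads were aligned to the B6 genome, and the part of this in the differences between strains was not tested. The median gene had a B6 share of 55.1% to 56.8% per embryo, and the sizes of the allele libraries were scaled separately, so that these differences are relative to it. With 1 library size per embryo the median strain difference of all genes moved from 0.06 to 0.39, and the calls went to B6 for 2291 and to cast for 329 genes, against 1372 and 563.

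With a term for each embryo 4 of 10 genes differed between the strains, against 25.6% of all genes (15.7% toward B6 and 9.88% toward cast), and the added pair, *Dnmt3l* and *Trim28*, leaned toward cast. *Dnmt3l*, the cofactor of the de novo enzymes (chr10:78041947-78063622), had a B6 share of 39.8% to 54.3% over 8 embryos and a strain difference of −0.58 without (SE 0.27, adjusted p = 0.183) and −0.55 with embryo terms (SE 0.14, adjusted p = 0.00613). It also passed without embryo terms when reverse embryo 1 was left out (−0.60, adjusted p = 0.0591). *Trim28* (chr7:12999114-13031035) had a B6 share of 45.9% to 52.4%, below that of the median gene in every embryo. Its strain difference was −0.42 without (SE 0.22, adjusted p = 0.266) and −0.42 with embryo terms (SE 0.09, adjusted p = 7.59e-04). With 1 library size per embryo it was −0.08 for *Trim28* and −0.25 for *Dnmt3l*. *Aire* overlaps *Dnmt3l* and *Zbtb45* overlaps *Trim28* on the opposite strand.

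**Figure D3:**
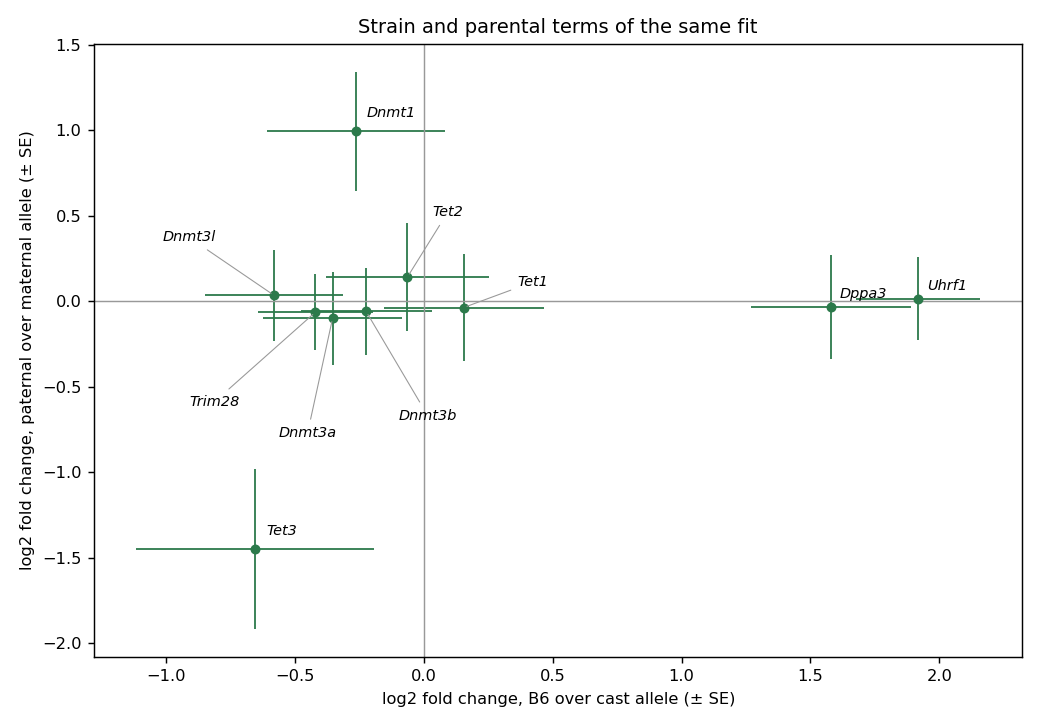
Strain difference (x axis, log2 fold change of the B6 over the cast allele) and parental difference (y axis, log2 fold change of the paternal over the maternal allele) of the 10 genes from 1 fit over 16 allele libraries without embryo terms, with bars of ± 1 SE. *Uhrf1* (1.92) and *Dppa3* (1.58) stand to the right near 0 on the y axis, and *Dnmt1* (0.99) and *Tet3* (−1.45) stand apart along it.

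*Trim28*, which silences imprinted regions and retroelements, was read evenly from both parental alleles. Its paternal share was 47.6%, 51.6% and 52.9% in the forward embryos 1, 2 and 3 and 48.6%, 45.9%, 48.3%, 47.8% and 48.4% in the reverse embryos 1, 2, 3, 5 and 7, or 50.7% ± 2.74 (SD, n = 3) and 47.8% ± 1.09 (SD, n = 5). The interval excluded 50% in 1 embryo, reverse 2, and the parental difference was −0.06 (SE 0.22) over 7852 reads.

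The de novo methyltransferases were read from both parental alleles in every embryo. *Dnmt3a* (chr12:3806007-3914443) had paternal shares of 46.7%, 51.4% and 48.5% in the forward embryos and 53.5%, 53.8%, 39.4%, 50.9% and 37.9% in the reverse embryos, with 66 to 173 reads each, and the interval spanned 50% in all 8. *Dnmt3b* (chr2:153649450-153687730) had 50.6%, 51.5% and 36.8% in the forward and 44.9%, 63.9%, 48.5%, 49.7% and 58.5% in the reverse embryos. The interval of *Dnmt3b* excluded 50% in 4 embryos, toward the maternal allele in forward 3 and reverse 1 and toward the paternal allele in reverse 2 and 7. *Dnmt3l* had 48.9%, 55.3% and 60.2% in the forward and 54.3%, 51.1%, 43.3%, 40.8% and 48.2% in the reverse embryos, and its interval excluded 50% in 3. Within 1 cross, intervals on both sides of 50% were found for *Dnmt3b* in the reverse embryos. Those of *Dnmt3l* lay above 50% in forward 3 and below it in reverse 3 and 5. The antisense genes *Dnmt3aos* and *Dnmt3bos* overlap the first and the second on the opposite strand.

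*Tet1* and *Tet2*, the dioxygenases of pluripotent cells, were read from both parental alleles too. For *Tet1* (chr10:62804570-62908996) the paternal share was 41.3%, 39.0% and 43.3% in the forward embryos and 51.5%, 62.5%, 56.3%, 68.5% and 59.1% in the reverse embryos. The paternal share was lower in all forward than in all reverse embryos, and the B6 share was above 50% in all 8 embryos, which 20.7% of the 5609 genes showed. Its strain difference of 0.15 (SE 0.31, adjusted p = 0.841) did not pass the test. For *Tet2* (chr3:133463679-133545139) the paternal share was 44.8%, 52.5% and 46.5% in the forward embryos and 54.2%, 73.6%, 48.3%, 61.8% and 51.6% in the reverse embryos, with a strain difference of −0.06 (SE 0.31). Reverse embryo 2, the highest, had 199 maternal and 554 paternal reads of *Tet2*. *Gm48353* and *Gm26479* overlap *Tet1* on the same strand and *Gm42567* overlaps *Tet2* on the opposite strand.

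**Figure D4:**
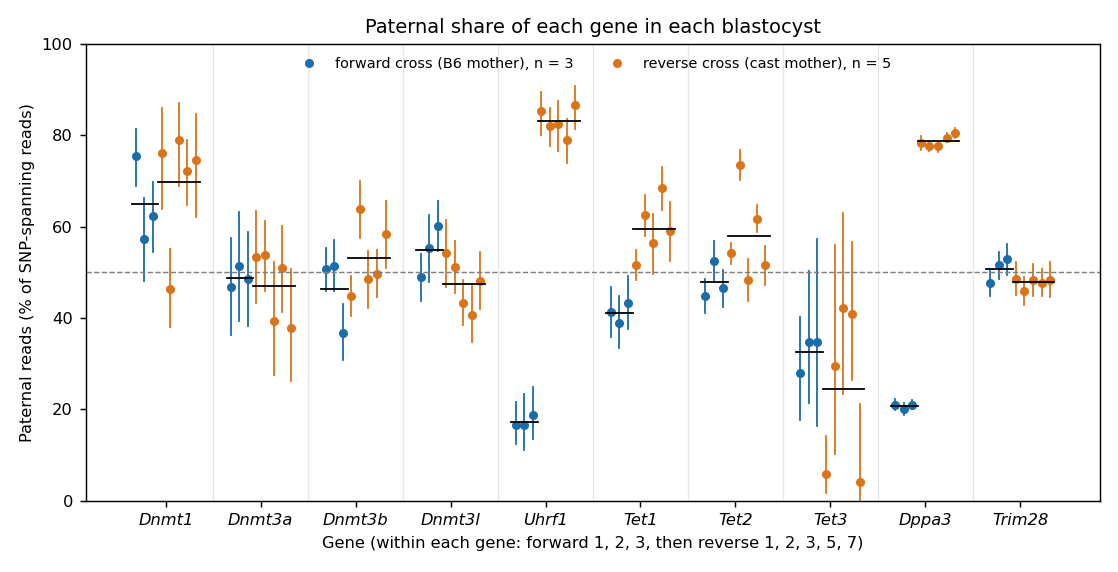
Paternal share (y axis, percent of SNP-spanning reads, points with exact 95% binomial intervals) of each gene (x axis) in each blastocyst, with forward embryos in blue and reverse embryos in orange and a black line at the mean of each cross. *Uhrf1* and *Dppa3* swing across 50% between the crosses, *Dnmt1* lies above it but for reverse 2, and *Tet3* lies below it in all 8.

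The crosses were next compared in the level of each gene, as the sum of both alleles. In all 10 genes the forward and the reverse embryos overlapped, while 6.63% of the 10484 genes tested did not overlap. Of the members, 0 of 10 passed the test at an adjusted p of at most 0.1 (edgeR), against 0.0668% of all genes (0.0382% higher in the reverse and 0.0286% higher in the forward cross, 7 genes in all, with 750 at an unadjusted p of at most 0.05). DESeq2 called 136 genes and again 0 of the 10. The largest difference was that of *Dnmt1*, with 122, 109 and 134 CPM in the forward embryos 1, 2 and 3 and 39.7, 90.0, 70.2, 127 and 61.9 CPM in the reverse embryos 1, 2, 3, 5 and 7. Reverse over forward this was −0.65 on the log2 scale (SE 0.35, 95% interval −1.41 to 0.12, adjusted p = 0.743). The intervals of the other genes reached from −1.38 to 1.28, so that a difference of 1 on this scale lay within several of them.

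The SD of the level was larger in the reverse than in the forward embryos for every gene but *Tet3* (12.9 CPM forward and 12.4 CPM reverse). For *Trim28* it was close, with 136 CPM in the forward and 140 CPM in the reverse embryos. In the same order it was 43.1 and 296 CPM for *Tet2*, 29.5 and 150 CPM for *Tet1*, and 12.3 and 32.8 CPM for *Dnmt1*. *Tet2* had 433, 492 and 517 CPM in the forward embryos and 1117, 484, 390, 814 and 536 CPM in the reverse embryos 1, 2, 3, 5 and 7. *Tet1* had 200, 257 and 242 CPM in the forward and 574, 308, 187, 297 and 233 CPM in the reverse embryos. Reverse embryo 1 was the highest for both, and without it their difference between the crosses went from 0.48 to 0.21 for *Tet2* and from 0.46 to 0.14 for *Tet1*. The same embryo, with the fewest *Krt8* and *Krt18* reads but the most *Tead4* and *Tfap2c* reads, was the highest also for *Dnmt3b* (325 CPM, against 157 to 297 in the others) and *Tet3* (43.5 CPM, against 10.9 to 41.6). It was the lowest for *Dnmt1* (39.7 CPM), *Dnmt3l* (118 CPM, against 168 to 330), *Dppa3* (1898 CPM, against 2768 to 5807) and *Trim28* (479 CPM, against 660 to 995). The part of the lineage mixture in these values was not tested.

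From the lowest to the highest embryo the level spanned 1.62-fold for *Uhrf1*, the narrowest span of the 10 genes over all 8 embryos. The span was 2.06-fold for *Dnmt3a*, 2.07-fold for *Dnmt3b*, 2.08-fold for *Trim28*, 2.78-fold for *Dnmt3l*, 2.86-fold for *Tet2*, 3.06-fold for *Dppa3*, 3.07-fold for *Tet1*, 3.37-fold for *Dnmt1* and 3.98-fold for *Tet3*. Reverse embryo 1 was the highest or the lowest embryo for every gene but *Uhrf1* and *Dnmt3a*, so that the order of the spans depends on it. Without this embryo *Trim28* ran from 660 to 995 CPM, beside 135 to 219 CPM for *Uhrf1*. These levels are per gene and not per length, so that they are compared between embryos and not between genes.

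**Figure D5:**
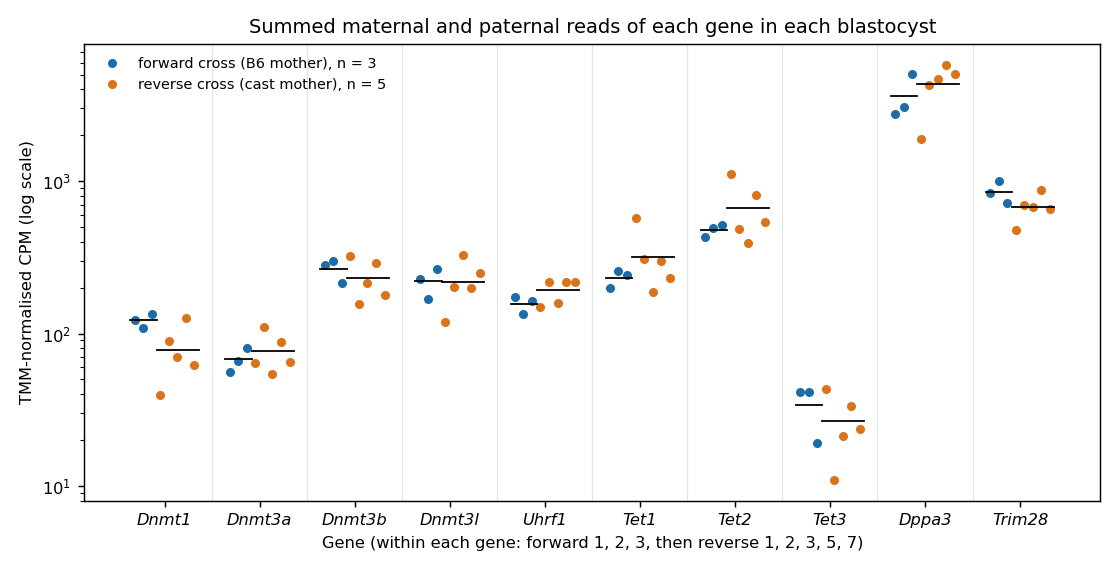
Level of each gene in each blastocyst (y axis, TMM-normalised CPM of the summed maternal and paternal reads, log scale) by gene (x axis), forward in blue and reverse in orange, with a black line at the mean of each cross. The crosses overlap for every gene, and reverse embryo 1, the first orange point of each gene, is the highest for *Tet1* and *Tet2* and the lowest for *Dnmt1* and *Dppa3*.

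Over the 8 embryos the levels of *Tet1* and *Tet2* went together (Pearson's r = 0.896 of log2 CPM), as did those of *Dnmt3b* and *Tet3* (0.933) and of *Dnmt1* and *Trim28* (0.850), while *Dnmt3l* and *Tet1* went opposite ways (−0.885). These are descriptions over 8 libraries that share the spread of reverse embryo 1. Among 7506 autosomal genes with at least 200 reads, the genes most like *Dnmt1* were *Lrrc47* (r = 0.968) and *Tut1* (0.966), and those most like *Tet3* were *Tor1aip2* (0.987) and *Ube2j2* (0.962). For *Uhrf1* they were *Gm9465* (0.958) and *Wdfy2* (0.949), and for *Dppa3* *Lrpap1* (0.973) and *Khdc3* (0.971), the last a gene of the subcortical maternal complex. *Tet1* was most like *D230025D16Rik* (0.988) and *Rnf149* (0.981), and *Tet2* most like *Ino80d* (0.970) and *Dennd5b* (0.968). For the remaining genes they were *Rgs11* (0.947) and *Mpv17* (0.887) for *Dnmt3a*, *Helq* (0.957) and *Fam179b* (0.948) for *Dnmt3b*, *Psmg3* (0.971) and *Pgam2* (0.971) for *Dnmt3l*, and *Fscn1* (0.981) and *Pip4k2c* (0.976) for *Trim28*.

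The partners of these enzymes were compared from lists of the pathway. Of 16 tested partners of methylation, such as *Uhrf2*, *Hells* and the histone methyltransferases, 0 differed between the parental alleles and 7 were equivalent, with a median parental difference of 0.01 against −0.01 over all genes. Over all genes tested 1.42% differed between the parental alleles, 35.4% were equivalent and 15.4% differed between the strains. The counts of this and the following lists are to be read against these shares. For equivalence the share depended on coverage, and with at least 10 reads in every embryo 5590 of 7162 genes were equivalent. Between the strains 3 of 16 differed. *Pcna*, the sliding clamp of replication, was read more from B6 (3.67, SE 0.41, adjusted p = 8.97e-07), as was the histone deacetylase gene *Hdac1* (1.65, SE 0.32, adjusted p = 9.36e-04), while *Usp7*, a deubiquitinase that binds UHRF1 and DNMT1, was read more from cast (−0.75, SE 0.25, adjusted p = 0.0566).

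Of 17 tested genes of demethylation and base excision repair, 0 differed between the parental alleles and 6 were equivalent (35.4% over all genes), with a median of −0.13. Between the strains 4 of 17 differed (15.4% over all genes). The glycosylase genes *Tdg* (1.57, adjusted p = 0.0246) and *Mbd4* (1.39, adjusted p = 0.0883) and the ligase gene *Lig3* (0.83, adjusted p = 0.0154) were read more from B6, and the cytidine deaminase gene *Apobec1* more from cast (−2.95, adjusted p = 0.0475, 60 reads in all). Of 6 methyl-CpG readers, 0 differed between the parental alleles, 4 were equivalent (35.4% over all genes), and 1 differed between the strains (15.4% over all genes), since *Mbd3* was read more from cast (−0.79, adjusted p = 0.0703). The X-linked *Ogt*, *Zbtb33* and *Atrx* were not tested.

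The next list joined genes of imprint protection and partners of TRIM28. Of its 19 tested genes, 0 differed between the parental alleles (1.42% over all genes) or between the strains (15.4%). Equivalent were 15 of them, against 35.4% of all genes and 5590 of the 7162 genes with at least 10 reads in every embryo. The list's genes with the most reads were *Rif1* (1294 maternal and 1594 paternal reads) and the KRAB zinc finger gene *Zfp568* (1437 and 1333). Of 19 genes of methyl donor synthesis, 0 differed between the parental alleles and 11 were equivalent (1.42% and 35.4% over all genes). Between the strains 2 of 19 differed (15.4% over all genes), and these, *Bhmt* (2.72, adjusted p = 0.00324) and *Ahcy* (1.24, adjusted p = 0.0314), of the methionine cycle, were read more from B6. Between the crosses 0 genes of the 5 lists passed the test.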

How the data were processed

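The values deposited by the authors are raw counts, per gene and embryo, of the SNP-spanning reads of each strain. As their methods state, RNA of single blastocysts was sequenced with a SMART-Seq2 compatible protocol, reads were aligned to mm10 with STAR, reads mapping to multiple locations were left out, and reads over annotated SNPs were counted per strain in an intermediate step of Allelome.Pro. The submitters' processing notes name STAR 2.5.2b and SAMtools 1.9-92. The authors removed reverse samples 4 and 6 beforehand. The counting of strand was not stated.

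Maternal and paternal reads were assigned by cross. Positions came from GENCODE release M21 by symbol and then from RefSeq, and 21057 of 22810 genes were autosomal, 645 X-linked and 1108 not matched. X-linked and unmatched genes were left out of the tests. Depth was 1060063 to 1632695 reads per embryo, and shares carry exact Clopper-Pearson intervals.

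Alleles were compared with the quasi-likelihood test of edgeR 4.0.16 (with limma 3.58.1 in R 4.3.3). TMM factors were taken over 16 allele libraries, and strain and parent were the terms. A gene was tested when 1 allele library or more held at least 10 of its reads. Benjamini-Hochberg adjustment ran over all 12566 genes, and calls had an adjusted p of at most 0.1. Equivalence used a one-sided test in each direction against a log2 margin of 1, without embryo terms, and kept the larger p. Crosses were compared on the summed reads (10484 genes with at least 10 reads in at least 3 embryos). The alleles of 1 embryo come from the same animal, and their deviations from the group means correlated with r = 0.107 to 0.618 in the 8 embryos, so the fit with a term for each embryo is given where it changes a call. Alternatives were DESeq2 1.42.0, RLE size factors, other filters, a shared library size for both alleles of an embryo, legacy = FALSE, no strain term, a margin of 1.5-fold, 1 strain's reads alone, and leaving out each embryo. The scripts were tested on simulated data. There the parental fit without embryo terms recovered 37.8% of the genes given a log2 change of 1.5. The fit of the crosses recovered 62.3% of the genes given a change of 2. Promoter windows came from RefSeq (GRCm38.p6), which matched 9 of 10 genes.

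The members and lists were chosen with earlier results of these data known. Named genes are all 10 members, list genes past the threshold (at most 4 per comparison by size, or the 2 with the most reads), and the 2 genes most like each member. *Dnmt3c*, *Neil2*, *Idax*, *Zbtb4*, *Zbtb38* and *Mat1a* of the lists had no row under these symbols.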

Additional observations from a re-analysis of the deposited data

Results flagged for a closer look

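The paternal share of *Dnmt1* in reverse embryo 2 was 46.4% (75 maternal and 65 paternal reads), far from the 72.3% to 79.1% of the other 4 reverse embryos by Dixon's test. It was the only 1 of 20 such tests over the 10 genes, of paternal shares and levels in the reverse cross, to stand out, and chance gives about 1 in 20. Without this embryo the fit with a term for each embryo gave *Dnmt1* a parental difference of 1.25 (adjusted p = 0.00114).

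For *Uhrf1* (adjusted p = 4.76e-06) and *Dppa3* (adjusted p = 0.00107) the difference between paternal and maternal reads itself differed between the crosses, which is the strain term of the fit. The paternal share of *Uhrf1* averaged 17.3% over forward and 83.1% over reverse embryos, and that of *Dppa3* 20.7% and 78.7%.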

How the results depend on the processing

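Of the counts of members called, 57 values under alternatives stayed within 1.5 times the reported one and 5 moved. The parental comparison called 2 of 10 with the replicate block that pairs the alleles of an embryo, and 1 of 10 (*Tet3*) with no filter on low counts (adjusted p = 0.0795) or with legacy = FALSE (0.0982), against 0. The strain comparison called 4 of 10 with the replicate block, against 2. Equivalence held for 0 of 10 with the 1.5-fold margin (adjusted p = 0.489), which is narrower by construction. For the other moves the cause was not tested. Leaving out embryos from the fit with the replicate block, for *Dnmt1* and *Tet3*, was chosen after seeing the data. The replicate block changed no other call of the members. It raised the calls over all genes from 178 to 391 between parents and from 1935 to 3212 between strains. Without reverse embryo 1 the crosses differed in 152 genes, against 7, and 0 were members.

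Signs that turned belong to differences that no fit called. Between parents these were *Tet1* with the replicate block (0.0075), and *Dnmt3l* (−0.11), *Tet1* (0.024) and *Dppa3* (0.46) with no strain term. With an embryo left out, *Tet1* ranged from −0.11 to 0.10, *Dnmt3b* from −0.12 to 0.056, *Dnmt3l* from −0.058 to 0.13, *Uhrf1* from −0.038 to 0.069 and *Dppa3* from −0.050 to 0.0012. Between strains, 1 library size per embryo gave *Dnmt1* 0.075, *Dnmt3b* 0.12 and *Tet2* 0.28, and *Tet2* ranged from −0.16 to 0.0064 with an embryo left out. Between crosses *Dnmt3l* gave 0.0033 with DESeq2, 0.0036 with RLE size factors, 0.0038 with 10 reads in every embryo, 0.033 with B6 reads alone, and −0.21 to 0.15 with an embryo left out. *Dnmt1* gave 0.32 with B6 reads alone and −1.67 with cast reads alone, against −0.65, and *Tet3* −1.97 and 0.96, against −0.35, none of them past the threshold.

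Replicate numbers do not pair embryos of different crosses (correlation of same-numbered embryos 0.188, 0.00732 and 0.138). With the number as a replicate block, the crosses differed in 4 genes, 0 of them members, and *Dppa3* gave −0.049. Depth limits *Tet3* most, with 17 to 69 reads per embryo.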
